A study of Mus musculus with 15 samples.

Results

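The 10 genes described here are Ret, Gfra1, Etv4, Etv5, Spry1, Wnt11, Wnt9b, Gata3, Emx2 and Calb1, which mark or control the branching ureteric epithelium of the developing kidney. They were chosen by name, out of 46517 gene rows in the RNA tables, and all 10 passed the filter on low counts. Mouse kidney samples of strain C57BL/6 were used. Messenger RNA was sequenced in 3 control and 3 knockout (KO) libraries from the day of birth (postnatal day 0, P0). DNA methylation was measured by reduced representation bisulfite sequencing (RRBS), which reads cytosines near MspI cutting sites, in 3 control and 3 KO libraries at P0 and in 3 adult libraries at 6 weeks. Controls carried Dnmt1 f/f (floxed alleles without Cre), KO samples were Six2Cre Dnmt1 f/f, and adults were wild type, so adults differed from controls in the floxed alleles as well as in age. Six2Cre is active in the nephron progenitors next to the ureteric tips, a lineage separate from the ureteric epithelium itself. The labels give cells positive for Six2 as the source and also state that DNA came from whole kidneys. They name no separate animals, so p-values measure only the spread between these libraries.

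Branching starts when GDNF, secreted by the mesenchyme, binds the co-receptor GFRA1 and activates the receptor tyrosine kinase RET on ureteric tip cells. RET signalling turns on the ETS transcription factors ETV4 and ETV5 and the secreted factor WNT11, while SPRY1 dampens receptor tyrosine kinase signalling and limits branching. GATA3 and EMX2 are transcription factors needed for growth of the duct and bud, WNT9B is the ureteric signal that induces nephrons, and CALB1 (calbindin) is a calcium-binding protein used as a marker of the ureteric tree. DNMT1 copies methylation to the new DNA strand at replication.

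RNA libraries held between 26773937 and 34102567 counts in genes, and RRBS libraries between 18424875 and 88765177 methylation calls, with KO 3 the shallowest in both. Dnmt1, the targeted gene, stood at 180.0, 156 and 188 CPM (counts scaled to a common library size with TMM factors, the unit used for all RNA levels below) in the controls and 109.9, 110.7 and 93.7 in the KO libraries, a log2 fold change of -0.74 (SE 0.12, edgeR adjusted p 0.00577). Six2, the gene of the labelled source, was read in every library, with 41.4 to 107 CPM among controls against 84.4 to 104.8 CPM among KO libraries. Of the other 3 nephron progenitor markers, Cited1 was lower (44.8, 63.0 and 17.8 CPM in controls, 8.85, 6.95 and 5.85 in KO, log2 fold change -2.53, adjusted p 0.00556), Eya1 was higher (0.65, adjusted p 0.0463) and Meox1 had no call (-0.71, adjusted p 0.0736). Markers of other kidney cells were present too. The summed CPM of 7 thick limb and distal tubule markers was 1306 to 1987 in controls and 159 to 213 in KO. That of 5 urothelial markers was 56.0 to 77.3 against 91.6 to 353, and that of 6 principal cell markers 496 to 869 against 361 to 698. Defining markers of sympathetic neurons, which also make RET and GATA3, were at or near 0: Th, Dbh and Chrna3 reached at most 0.38 CPM in any library. In such bulk samples a change in the number of cells of a type and a change in RNA per cell cannot be told apart.

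4 promoter sequences are shown first, because their CG sites were nearly free of methylation in all 3 groups, unlike many of the positions inside the genes described further on. Each holds more CG sites than the median promoter. They are the 250 bases before the RefSeq start (GRCm38.p6), 5′ to 3′ on the strand of the gene, and capitals mark the CG sites with at least 5 calls in all 9 RRBS libraries. RefSeq promoter entries matched 7 of the 10 genes, with 9 starts in all; Ret, Etv4 and Calb1 are named only.
Gfra1, chr19:58455399-58455648, minus strand: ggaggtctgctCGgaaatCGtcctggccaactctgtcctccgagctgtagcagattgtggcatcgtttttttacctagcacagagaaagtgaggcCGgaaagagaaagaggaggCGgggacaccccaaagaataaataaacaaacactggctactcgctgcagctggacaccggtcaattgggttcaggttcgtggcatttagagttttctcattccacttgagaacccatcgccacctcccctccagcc
Gata3, chr2:9878601-9878850, minus strand: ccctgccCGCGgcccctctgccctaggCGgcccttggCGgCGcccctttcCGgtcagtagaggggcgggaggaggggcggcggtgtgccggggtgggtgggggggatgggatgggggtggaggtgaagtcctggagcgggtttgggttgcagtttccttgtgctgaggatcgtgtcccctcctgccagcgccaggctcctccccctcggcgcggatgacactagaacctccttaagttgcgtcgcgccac
Wnt11, chr7:98834862-98835111, plus strand: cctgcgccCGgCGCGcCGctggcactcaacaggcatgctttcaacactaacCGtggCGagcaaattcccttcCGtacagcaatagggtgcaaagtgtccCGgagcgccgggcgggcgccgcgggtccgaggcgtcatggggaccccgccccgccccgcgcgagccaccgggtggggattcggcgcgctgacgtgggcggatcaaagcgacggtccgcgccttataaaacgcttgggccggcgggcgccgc
Wnt9b, chr11:103749822-103750071, minus strand: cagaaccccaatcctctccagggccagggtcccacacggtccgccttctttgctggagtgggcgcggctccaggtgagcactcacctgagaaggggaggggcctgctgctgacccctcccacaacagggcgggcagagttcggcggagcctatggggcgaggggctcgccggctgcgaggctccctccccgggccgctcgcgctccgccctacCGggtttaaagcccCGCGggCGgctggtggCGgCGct
These windows hold 10, 19, 37 and 22 CG sites, against a median of 6 over 32851 RefSeq promoters of the same length. All 231 RRBS positions in the 9 windows fell on a CG of the sequence. Calls summed over the Gfra1 window gave 1.34% ± 0.434 methylation in controls, 2.07% ± 0.801 in KO and 1.21% ± 0.122 in adults (SD over 3 libraries, 79 to 902 calls in each). The Gata3 window was at 1.07% ± 1.42, 1.05% ± 0.467 and 0.436% ± 0.546, the Wnt11 window at 0.517% ± 0.561, 0.935% ± 0.873 and 0.606% ± 0.445, and the Wnt9b window at 1.44% ± 0.919, 0.392% ± 0.679 and 0.453% ± 0.0824. The highest value of any library in any of the 9 windows was 6.40%. The thinnest window, at 1 of the Etv5 starts, had 0 of 19 calls methylated in control 1, which allows up to 15.8%. The MspI site CCGG, which is its own reverse complement, occurs in all 9 windows and in 47.1% of all promoters. The letters CCGGAA, an ETS core motif that contains CCGG, were searched on both strands and occur once each in the Gfra1 window, the Gata3 window and the window of a second Wnt11 start, and in 12.0% of all promoters.

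Ret and Calb1 were higher in KO kidneys by edgeR's test, which the other 8 genes did not pass. Ret, the receptor of the tip cells, stood at 63.3, 88.8 and 42.7 CPM in the controls and at 127, 124 and 119 CPM in the KO libraries. Every KO library lay above every control, and the KO libraries lay closer together than the controls. The log2 fold change was 0.92 (SE 0.23, adjusted p 0.0329), a ratio of means of 1.90. Calb1 stood at 170.5, 195 and 224 CPM in controls and 295, 303 and 274 CPM in KO, again without overlap, with a log2 fold change of 0.56 (SE 0.14, adjusted p 0.0274). With 2 of 10 members called higher and 0 lower, the background was 6.36% of 18132 tested genes called higher and 8.23% called lower. At an unadjusted edgeR p under 0.05 these counts were 4 higher and 0 lower. The share of all genes at that looser threshold was not counted, so no background stands beside them. DESeq2 and voom also called 0 lower. DESeq2 called Emx2 higher besides Ret and Calb1, and voom called Emx2, Gata3 and Wnt9b. Both calls were lost when single libraries were left out: Ret lost its call without control 1 (adjusted p 0.0989) and without KO 1, 2 or 3 (0.112, 0.0894 and 0.0887), with log2 fold changes still between 0.90 and 0.95, and Calb1 without control 1, control 2 or any KO library (0.0675 to 0.123). Ret kept its call without control 2 (1.21 on the log2 scale) and without control 3 (0.70), and Calb1 ranged from 0.46 without control 1 to 0.67 without control 3. Calb1 is also made by distal and connecting tubules. The 7 markers summed above include Slc12a1 and Umod, genes of the thick limb that held much of the sum. Taken singly, 6 of the 7 were called lower, among them Slc12a3 of the distal tubule (-3.53, adjusted p 0.00167), and Trpm6 had no call. The part of these tubules in the Calb1 level was not tested.

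**Figure D1:**
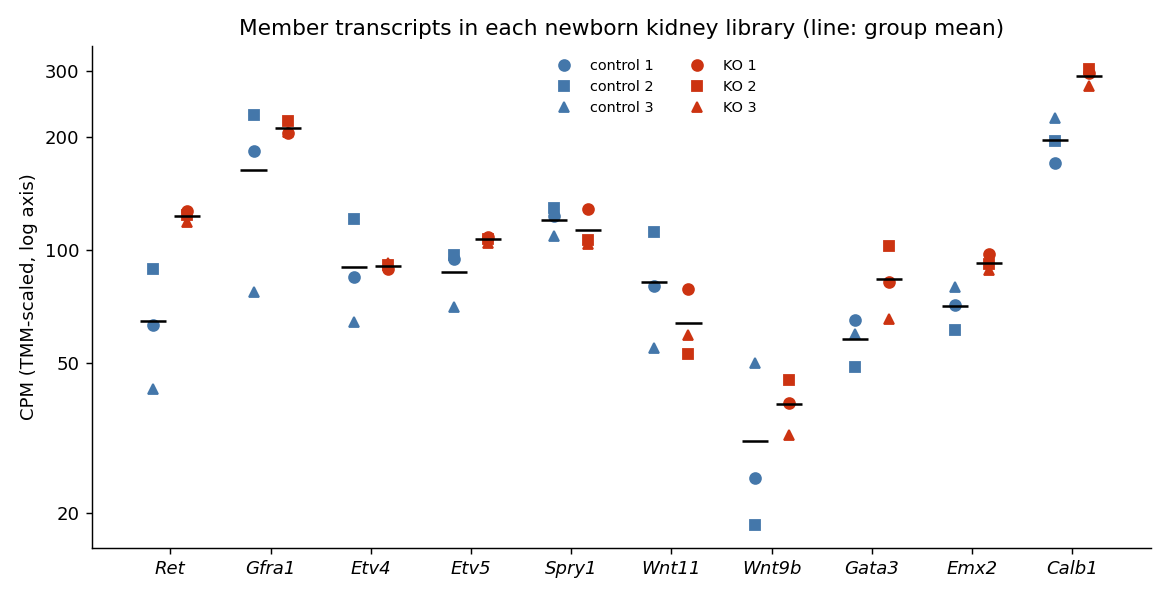
Level of each of the 10 transcripts in CPM on a log axis, with 1 symbol per library (blue control, red KO; circle, square and triangle for libraries 1, 2 and 3) and a black line at the group mean. The 3 KO libraries of Ret sit between 119 and 127 CPM, above all 3 controls, while control 3 is the lowest control for Ret, Gfra1, Etv4, Etv5, Spry1 and Wnt11.

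Gfra1, the co-receptor, was measured at 183, 228 and 77.3 CPM in controls and at 205, 221 and 206 CPM in KO. Control 3 was far below the other 2 controls and control 2 was above all KO libraries. Its log2 fold change of 0.37 (SE 0.33, adjusted p 0.534) was within the spread of the controls, and went from 0.03 without control 3 to 0.69 without control 2, with no call in either case. Gdnf, the ligand, stood at 49.3, 55.7 and 30.9 CPM in controls and 70.1, 62.9 and 67.1 CPM in KO, with no overlap, and missed the threshold (log2 fold change 0.56, SE 0.20, adjusted p 0.109).

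Of the 4 members that RET signalling turns on, 0 passed the test, and 0 had an unadjusted edgeR p under 0.05 (the lowest was 0.0692, for Etv5); DESeq2 also called 0. Etv4 was at 84.9, 121 and 64.6 CPM in controls and 89.1, 91.1 and 92.6 CPM in KO, so the KO libraries lay inside the range of the controls (log2 fold change 0.01, SE 0.20, adjusted p 0.975). Etv5 was at 94.4, 97.3 and 70.6 CPM in controls and 108, 107 and 105 CPM in KO, a small difference without overlap (0.29, SE 0.14, adjusted p 0.219). Spry1, the feedback inhibitor, was at 123, 129 and 109 CPM in controls and 129, 106 and 104 CPM in KO, with overlap (-0.09, SE 0.13, adjusted p 0.699). Wnt11 was at 80.2, 112 and 55.0 CPM in controls and 78.8, 53.0 and 59.6 CPM in KO, also with overlap (-0.37, SE 0.25, adjusted p 0.41). With 1 library left out the Wnt11 difference ranged from -0.09 without control 2 (adjusted p 0.849) to -0.59 without control 3 (adjusted p 0.0448), the only one of these fits that called it.

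Because several of these genes were high in control 2 and low in control 3 together, their level was also taken relative to Ret within each library, for 5 ratios chosen after the values were seen. Wnt11 over Ret was 1.27, 1.26 and 1.29 in controls and 0.620, 0.428 and 0.502 in KO. This ratio was nearly the same in the 3 controls, although Wnt11 itself ranged from 55.0 to 112 CPM among them. Etv4 over Ret was 1.34, 1.36 and 1.51 in controls and 0.701, 0.736 and 0.780 in KO. Spry1 over Ret was 1.99 ± 0.554 against 0.914 ± 0.0841, Etv5 over Ret 1.41 ± 0.287 against 0.866 ± 0.0148, and Gfra1 over Ret 2.42 ± 0.553 against 1.71 ± 0.0885 (SD, n = 3 each). In each of the 5 ratios every KO library lay below every control, but so it did for 70.2% of all tested genes taken over Ret, against 2.91% with every KO library above. All 5 share Ret as denominator, so the higher Ret enters each of them, and no test was made. The ratios are within 1 gene pair and do not compare transcript numbers between genes, since gene lengths were not taken into account.

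The remaining 3 genes, Wnt9b and the transcription factors Gata3 and Emx2, had positive log2 fold changes without a call by edgeR. With voom all 3 were called (adjusted p 0.0178, 0.0428 and 0.00916), and with DESeq2 Emx2 was (0.0489). Wnt9b was at 24.9, 18.6 and 49.98 CPM in controls and 39.2, 45.3 and 32.3 CPM in KO, and control 3 exceeded every KO library (0.32, SE 0.33, adjusted p 0.602). With 1 library left out its log2 fold change ranged from 0.05 without control 2 (adjusted p 0.935) to 0.84 without control 3 (adjusted p 0.0089), the only one of these fits that called it. Gata3 was at 65.1, 48.8 and 59.7 CPM in controls and 82.4, 103 and 65.5 CPM in KO, with KO 3 just above control 1 (0.53, SE 0.18, adjusted p 0.0931). The urothelium is a tissue that also makes GATA3. Its markers summed to 56.0, 77.3 and 60.3 CPM in controls 1 to 3 and 353, 221 and 91.6 CPM in KO 1 to 3. The part of the urothelium in the Gata3 level was not tested. Emx2 was at 71.7, 61.4 and 79.7 CPM in controls and 97.4, 91.7 and 88.4 CPM in KO, without overlap (0.38, SE 0.12, adjusted p 0.0754), and 0.47 with an adjusted p of 0.0117 without control 3. In all, 5 members (Ret, Calb1, Gata3, Etv5 and Emx2) had every KO library above every control and 0 had every KO library below, where 16.5% and 17.8% of all tested genes were separated in these directions. The median log2 fold change was 0.35 over the 10 members and close to 0 over all genes. Control libraries spread more than KO libraries (SD of log2 CPM) for 8 of 10 members, and for 73.1% of all tested genes.

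Of 76 other genes in 5 lists of related pathways, 10 were higher and 8 lower (13.2% and 10.5%, beside the 6.36% and 8.23% of all tested genes given above). The lists were chosen with earlier results of these data known. Of 13 RET partners and tip genes, 1 was higher, Sox9, a transcription factor of tip cells (14.04, 16.8 and 16.4 CPM in controls, 40.1, 29.1 and 22.9 in KO, log2 fold change 0.96, SE 0.21, adjusted p 0.0194). Another was lower, Lhx1, a transcription factor of the duct and of early nephrons (-0.74, SE 0.18, adjusted p 0.0309). The median log2 fold change of these 13 genes was 0.32. Of 12 genes of FGF signalling and its feedback, Fgf10, a stromal and mesenchymal growth factor for the bud, was higher (1.13, SE 0.22, adjusted p 0.012), and Spry4, a feedback inhibitor related to Spry1, was lower (-0.65, SE 0.17, adjusted p 0.0352), around a median of 0.20.

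Of 17 WNT pathway genes, 2 were higher and 1 was lower, with a median of 0.03. Rspo3, a secreted enhancer of WNT signalling, rose by 1.23 on the log2 scale (SE 0.21, adjusted p 0.00666), and Axin2, a feedback target of the pathway, rose by 0.78 (SE 0.16, adjusted p 0.0155). The receptor Fzd4 fell by 0.48 (adjusted p 0.0287). Of 16 genes of the ureteric epithelium at large, 2 were higher and 3 lower, with a median of -0.05. Krt19, a keratin of simple and urothelial epithelia, stood at 38.1, 39.3 and 34.1 CPM in controls and 132, 147 and 57.8 CPM in KO (1.60, SE 0.31, adjusted p 0.0108). Slit2, a secreted guidance cue, was 0.44 higher (adjusted p 0.0257). Tfap2b, a transcription factor also of distal tubules, was lower (-1.76, SE 0.27, adjusted p 0.00357), as was Npnt, a ligand of the integrin ITGA8 (-0.63, adjusted p 0.0198). The epithelial genes Cdh1 and Epcam and the ureteric gene Hoxb7 had log2 fold changes of -0.18, -0.04 and -0.06 and no call.

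Of 18 mesenchymal genes that signal to the bud or control GDNF, 4 were higher and 2 lower, with a median of 0.08. Fgf20, a growth factor of nephron progenitors, went from at most 0.734 CPM to 2.17 to 5.02 CPM (log2 fold change 3.34, SE 0.58, adjusted p 0.00673), and Osr1, a regulator of nephron progenitors, from 4.76 to 7.34 CPM up to 10.8 to 11.6 CPM (0.95, SE 0.22, adjusted p 0.0214). Itga8, the integrin of the mesenchyme that binds nephronectin, was lower (-0.79, SE 0.11, adjusted p 0.00268), as was Wt1, a transcription factor of progenitors and podocytes (-0.59, SE 0.15, adjusted p 0.0324).

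**Figure D2:**
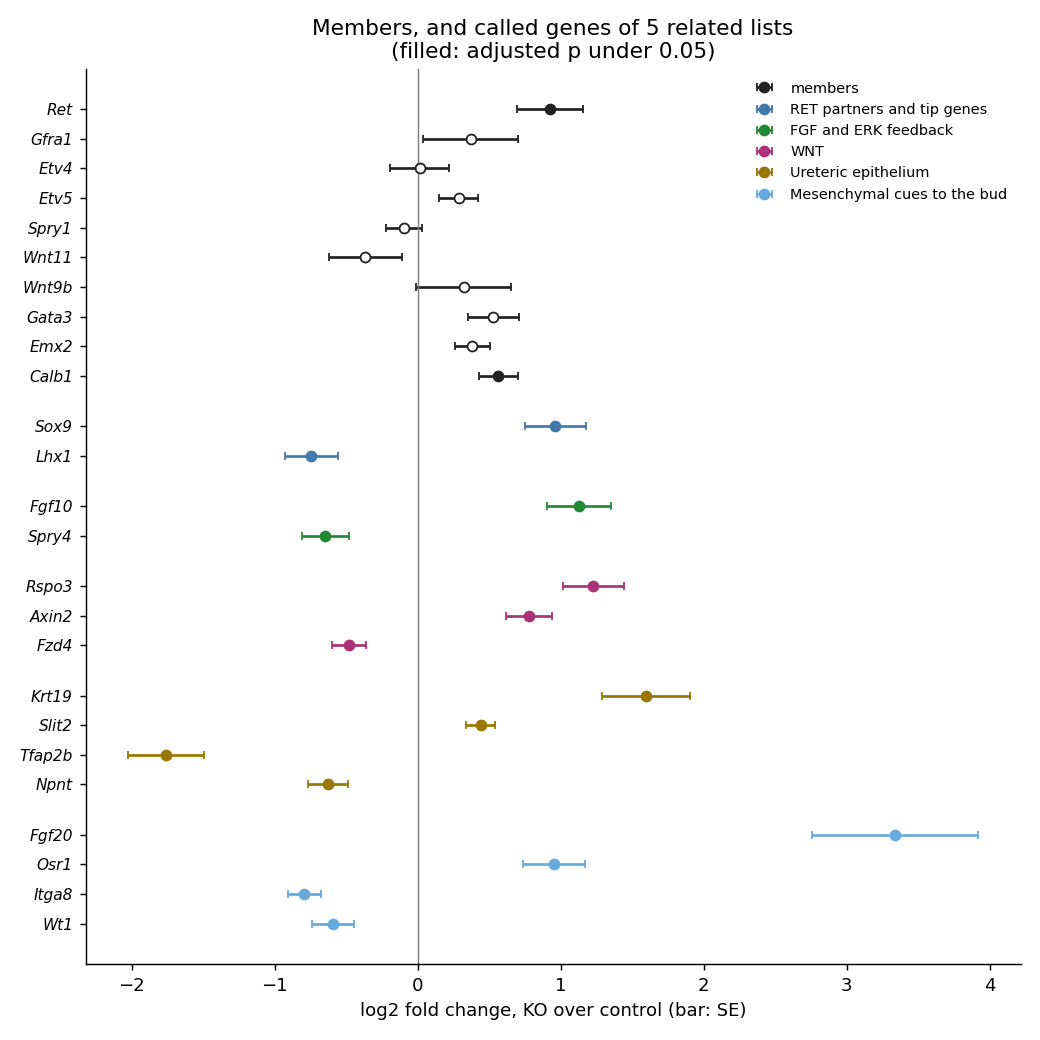
Log2 fold change of KO over control with its SE for the 10 members (black, top) and for some of the called genes of 5 related lists, up to 3 higher and 3 lower per list; filled points passed the adjusted p threshold of 0.05. Among the members only Ret (0.92) and Calb1 (0.56) are filled, and each of the 5 lists has called genes on both sides of 0.

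Methylation in and within 2000 bases of the 10 genes could be tested at 409 CpG positions with at least 10 calls in every P0 library. Of these, 58 were lower in KO and 4 were higher (a moderated quasi-binomial model, with an adjusted p under 0.05 and a change of 10 points or more). Of all 380162 positions tested, 34.8% were called lower and 0.123% higher. The members held many positions with almost no methylation, so they were split by the methylation in adults, a group that does not enter this comparison. At 211 positions under 10% in adults, the controls averaged 2.68% ± 0.419 and the KO libraries 2.60% ± 0.203 (SD, n = 3 each), and 2 positions were called lower (background 0.371%). At 112 positions of 50% and over in adults, controls 1 to 3 averaged 75.2%, 75.2% and 74.7%, and KO 1 to 3 averaged 58.5%, 54.3% and 59.9%. All KO libraries lay well below all controls, by 17.5 points on average. There 51 positions (45.5%) were called lower and 3 higher, where 59.4% of all such positions were called lower and the mean difference was -22.5 points. Of all 199693 such positions, 104 were called higher. At 72 positions of 10 to 50% in adults, 3 were called lower and 1 higher, beside a background of 12.7% called lower and 277 of 45775 called higher. In this middle range the controls averaged 21.7% ± 1.92 over members and the KO libraries 24.2% ± 5.94, with KO 3 at 31.0% and KO 1 and 2 at 21.5% and 20.1%, while over all positions it was 32.4% ± 0.566 against 25.4% ± 1.84. Neighbouring positions share reads and are not independent.

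**Figure D3:**
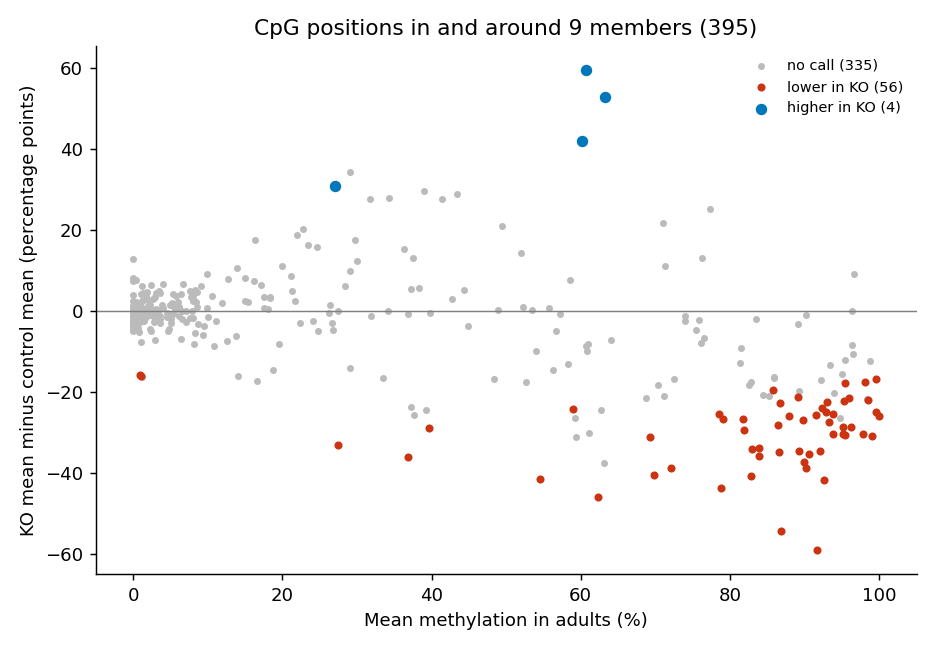
Each point is 1 of 395 CpG positions in or near 9 members with at least 10 calls in all 9 RRBS libraries; the x axis is the mean methylation in adults in percent and the y axis the KO mean minus the control mean in percentage points. Most positions near 0% in adults lie near 0 on the y axis, but 2 of Gfra1 were called lower. The 56 positions called lower (red) lie mostly above 50% in adults. The 4 called higher (blue) are 3 positions of Gfra1 and 1 of Gata3.

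Summed over each gene and its flanks, methylation fell in 4 of the 9 genes that could be tested (Ret, Gfra1, Etv5 and Spry1) and rose in 0, beside a background of 49.3% of 19031 genes called lower and 0.021% called higher. At an unadjusted p under 0.05 and without the 10-point rule, 5 members were lower and 0 higher. The share of all genes under this looser rule was not counted. Ret, on chromosome 6 from 118151748 to 118197744, had 87.4%, 83.9% and 81.9% in controls and 63.8%, 52.7% and 70.8% in KO over 11 positions, a difference of -22.0 points (adjusted p 1.05e-04). KO 2 was lowest and KO 3 nearest to the controls. Etv5, on chromosome 16 from 22381313 to 22439570, went from 59.5%, 55.8% and 57.6% to 42.9%, 42.8% and 43.6% over 25 positions (-14.5 points, adjusted p 2.66e-04). Spry1, on chromosome 3 from 37639947 to 37644599, went from 41.4%, 36.1% and 48.3% to 30.7%, 21.8% and 26.8% over 11 positions (-15.5 points, adjusted p 0.00933). The groups of Etv5 and of Spry1 did not overlap, but the call for Spry1 was lost without KO 2 (-13.1 points, adjusted p 0.0972) and without KO 3 (-7.77 points, under the 10 required), and at 5 calls per position (-6.06 points). Gfra1, on chromosome 19 from 58235581 to 58455946, went from 50.7%, 48.2% and 47.4% to 37.4%, 35.5% and 39.3% over 83 positions (-11.4 points, adjusted p 3.53e-06). With each position weighing the same the Gfra1 difference was -7.38 points, under the 10 required.

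Wnt9b, on chromosome 11 from 103727362 to 103775272, differed by -8.57 points over 38 positions, under the 10 points required (adjusted p 0.00378), and by -10.3 points, with a call, without KO 1. Wnt11 (-1.26 points over 39 positions, adjusted p 0.256), Gata3 (-0.68 points over 144, adjusted p 0.286), Etv4 (0.24 points over 34, adjusted p 0.999) and Emx2 (0.61 points over 24, adjusted p 0.962) had differences of at most 1.26 points in size. Of their positions covered in all 9 libraries, 18 of 35 in Wnt11, 89 of 137 in Gata3, 28 of 34 in Etv4 and 23 of 24 in Emx2 were under 10% in adults. At the positions of 50% and over in adults, the mean difference was -12.7 points in Wnt11 (10 positions, 3 called lower), -20.1 points in Gata3 (19, 8 called lower) and -12.0 points in Etv4 (4, 1 called lower), and Emx2 had none. Calb1, on chromosome 4 from 15881264 to 15906709, had calls at 45 positions but none with 10 in every library. Calls summed within 250 bases of its lower bound, where 19 positions were read, were 2.08%, 2.17% and 2.31% methylated in controls and 0%, 1.23% and 0% in KO, where 0 of 155 and 0 of 23 calls allow up to 1.94% and 13.0%.

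Averaged with equal weight over positions covered in all 9 libraries, 6 of 9 genes (Ret, Gfra1, Etv5, Spry1, Wnt11 and Wnt9b) had every KO library below every control and 0 had them above, beside 69.7% and 0.805% of 18509 genes. Each of the 6 had an exact permutation p of 0.1, the smallest possible, and 0.15 after adjustment over the 9 genes. The median difference was -6.86 points over the 9 genes and -9.77 points over all genes. In adults, 5 of the 9 genes (Gfra1, Etv5, Spry1, Wnt11 and Gata3) had every library above every control and 0 had every library below, beside 14.7% and 24.3% of all genes. The median KO difference was -4.79 points when KO 3 was left out and -3.49 points with at least 20 calls, where Ret and Spry1 had too few positions to enter.

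**Figure D4:**
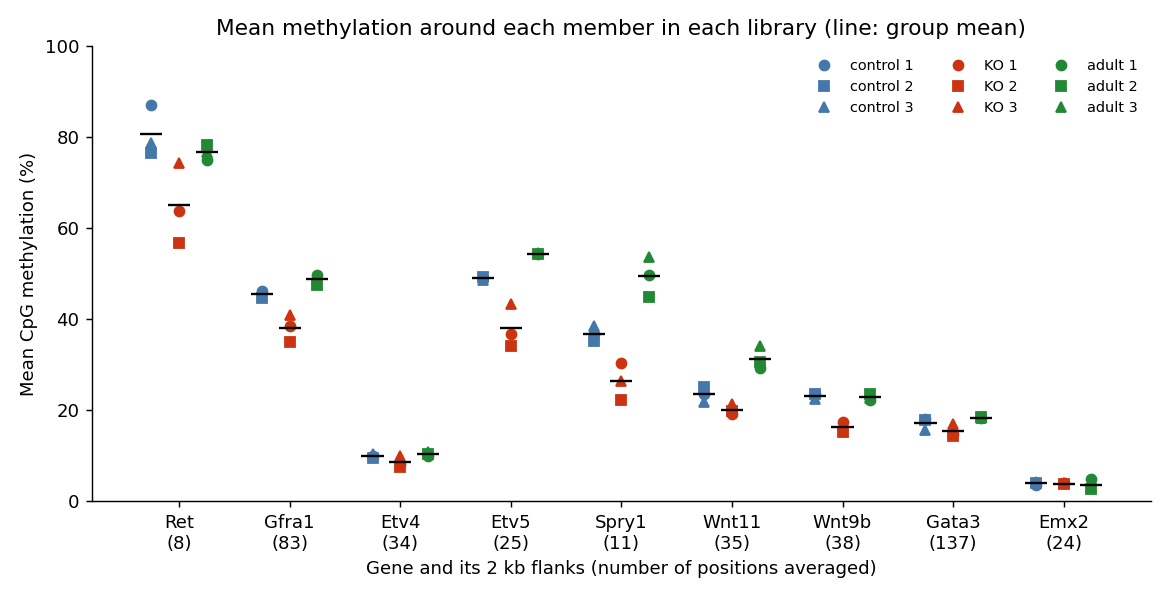
Mean CpG methylation in percent in and within 2 kb of 9 members in each library, with 1 symbol per library (blue control, red KO, green adult), a black line at the group mean and the number of positions averaged under each name. KO libraries lie below controls at Ret, Gfra1, Etv5, Spry1, Wnt11 and Wnt9b, and adults lie above controls at Gfra1, Etv5, Spry1, Wnt11 and Gata3.

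Of the 58 lower positions, 26 lay in 6 runs of at least 3 within 1000 bases. In Gata3, on chromosome 2 from 9857078 to 9887953, 8 of 10 tested positions between 9858430 and 9858606, near the gene's lower bound, were lower: their mean was 91.9%, 92.5% and 89.9% in controls, 60.3%, 58.5% and 61.7% in KO and 87.8%, 84.0% and 83.1% in adults. Gata3 is on the minus strand, so this bound is the end far from its RefSeq start. The 3 KO libraries lay close together and far below the controls, while the rest of Gata3 had 1 further lower position, 9867244 (-36.0 points, adjusted p 0.0474). Its largest single decrease was at 9858523 (-43.6 points, adjusted p 0.00597, 11 to 37 calls). In Etv5, 5 of 6 positions between 22392500 and 22392647 went from 96.1% ± 1.44 to 73.0% ± 6.83 (adults 98.5% ± 0.629, SD, n = 3 each). The largest decrease in Etv5 was at 22430604, from 87.0%, 82.7% and 100% to 48.1%, 55.6% and 50% (adjusted p 0.00398).

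In Wnt11, 3 of 6 positions between 98845980 and 98846194 on chromosome 7 went from 81.6% ± 1.54 to 50.6% ± 5.95. The largest decrease among them was at 98845980, the first of the 3 (-37.3 points, adjusted p 0.00541). In Ret the largest decrease was at 118168727, from 92.5%, 88.9% and 97.1% to 52.8%, 67.3% and 54.5% (adjusted p 0.00457). In Spry1 it was at 37643784, from 65.1%, 56.8% and 84.4% to 42.6%, 16.2% and 23.5% (adjusted p 0.00118). In Wnt9b it was at 103729278 (-40.6 points, adjusted p 0.009), and the only called position of Etv4 was 101786856, in the flank beyond its upper bound on chromosome 11 (-24.1 points, adjusted p 0.0389), where KO 3 lay inside the range of the controls. At each of these positions of Ret, Spry1 and Wnt9b the lowest control lay above the highest KO library.

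Gfra1 had 25 lower and 3 higher positions of 83, and its lower positions included 3 runs. The share lower was 30.1%, against 54.5% in Ret (6 of 11), 14.2% over all member positions and the 34.8% of all positions given above. Between 58270896 and 58271063, 4 of 4 positions went from 85.0% ± 3.34 in controls to 52.5% ± 5.71 in KO, with 88.1% ± 1.45 in adults (SD, n = 3 each). The first of them, 58270896, had the largest decrease of all member positions, from 71.0%, 87.3% and 87.8% to 34.0%, 29.6% and 5.56% (-58.9 points, adjusted p 1.55e-05). Between 58370019 and 58370057, 3 of 3 positions went from 82.8% ± 5.75 to 49.9% ± 6.04, and between 58407654 and 58407765, 3 of 3 went from 95.9% ± 1.82 to 65.6% ± 8.60.

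In contrast to these runs, 3 of 6 tested positions of Gfra1 between 58388691 and 58388738 were higher in KO. Together they averaged 41.1%, 24.0% and 56.0% in the controls, 100%, 75.4% and 100% in the KO libraries and 57.0%, 60.5% and 66.7% in adults. All KO libraries lay above all controls and adults, and the controls differed widely among themselves. The largest increase was at 58388726, with 27.3%, 24% and 57.1% in controls and 100%, 87.0% and 100% in KO (59.5 points, adjusted p 0.000135). Coverage was modest there, from 11 to 55 calls per library and position. The only other gain was at position 9874669 inside Gata3, where controls were at 0% (0 of 34 calls, up to 8.82%), 5.81% and 2.27% and KO 1, 2 and 3 at 2.94%, 47.6% and 50% (30.8 points, adjusted p 0.00475). KO 1 lay within the range of the controls at this position, so the gain was seen in 2 of 3 KO libraries.

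**Figure D5:**
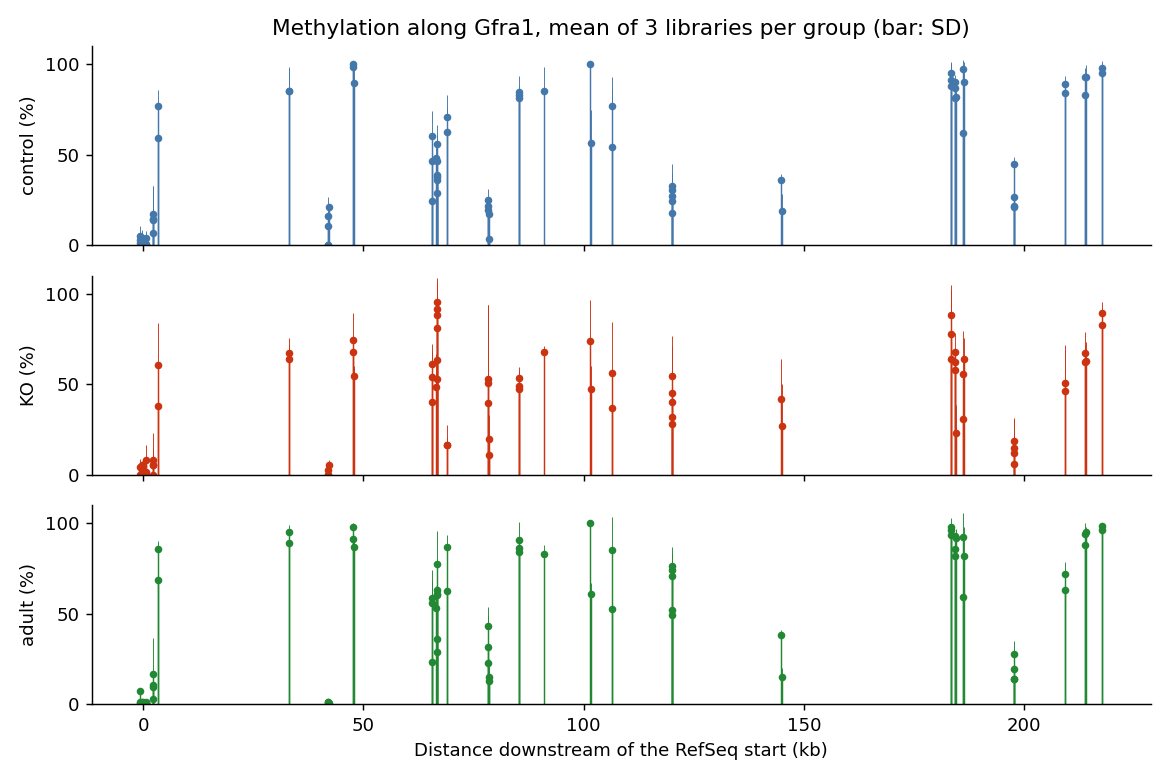
Methylation in percent (mean of 3 libraries, bar SD) at 83 CpG positions along Gfra1 in controls (top), KO (middle) and adults (bottom), plotted by distance in kb downstream of the RefSeq start. Positions at the start are near 0% in all 3 groups, 22 of the 45 positions of 50% and over in adults were called lower in KO, and the 3 positions higher in KO stand about 67 kb downstream.

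The comparison of adults with P0 controls uses the same 3 controls as the KO comparison. At 747 member positions, 3 were called lower and 12 higher in adults, beside 1.78% and 1.69% of 704580 positions. The count of 12 fell to between 3 and 7 whenever 1 of the 6 libraries was left out (7 without control 1, 3 without control 2, 7 without control 3, 7 without adult 1, 7 without adult 2 and 4 without adult 3). Summed over each gene, 0 of 9 members passed in either direction (9.2% of 23470 genes were called lower and 2.88% higher). At an unadjusted p under 0.05 and without the 10-point rule, 1 was lower and 1 higher, a rule under which all genes were not counted. Spry1 (7.40 points, adjusted p 0.0111) and Wnt9b (-4.64 points, adjusted p 0.00338) had adjusted p-values under 0.05 but differences under 10 points; within the bounds of Spry1 alone the difference was 12.4 points (adjusted p 0.000881).

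Spry1 held 5 of the 12 higher positions, of 37 tested. At 4 of 5 positions between 37641912 and 37642056, about 2 kb inside the gene's lower bound, methylation was 1.56%, 2.31% and 2.49% in controls and 31.7%, 35.9% and 44.0% in adults, with 2.04% ± 0.418 in KO (SD, n = 3), where KO 3 had as few as 4 calls. The rise thus separated all adults from all P0 libraries. The largest was at 37642037 (44.3 points, adjusted p 0.000812). In Gfra1, 3 of 4 positions between 58335403 and 58335434 were at 36.1%, 26.9% and 27.2% in controls, 80.6%, 73.3% and 67.3% in adults and 60.0%, 31.6% and 31.1% in KO, with the largest increase at 58335403 (49.4 points, adjusted p 0.00472). In Wnt11 the largest increase was at 98853608 (38.9 points, adjusted p 0.0184). Of the 3 lower positions, 103734412 in Wnt9b went from 91.7%, 91.5% and 76.2% to 83.3%, 33.3% and 38.2%, with adult 1 inside the range of the controls (-34.8 points, adjusted p 0.0078).

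4 positions were called in both comparisons, which share their controls, so their values are given side by side. Position 58413326 of Gfra1 had 20%, 20.9% and 22.4% in controls, 2.39%, 7.18% and 7.06% in KO and 0.88%, 0.52% and 0.82% in adults, at 85 to 479 calls, so that both groups were lower than the controls with no overlap. The next called position, 58413463, had 5.41%, 15.7% and 26.8% in controls, 0% in all KO libraries (0 of 33, 27 and 14 calls, which allow up to 9.09%, 11.1% and 21.4%) and 0%, 1.63% and 1.68% in adults, where 0 of 83 calls allows up to 3.61%. Position 9874669 of Gata3, described above for KO, had 37.5%, 20.8% and 22.9% in adults, above all controls. Position 98845980 of Wnt11 went the other way in the 2 comparisons, from 50%, 68.4% and 60.9% in controls to 28.9%, 29.4% and 9.09% in KO and to 88.4%, 90.6% and 90.9% in adults. RNA was not sequenced in adults, so no level of these transcripts stands beside the adult methylation.

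Set side by side, the 2 genes with higher RNA in KO differed in what RRBS could read: Ret lost 22.0 points of methylation over 11 positions, while Calb1 had no position with enough calls. RNA and methylation were both read in bulk samples, and Six2Cre is active in a lineage separate from the ureteric epithelium. Whether the cells that lost methylation are those that make these RNAs was not tested. Of the 3 other genes called lower in methylation, Gfra1, Etv5 and Spry1, none passed the RNA test, with log2 fold changes of 0.37, 0.29 and -0.09. Emx2 and Gata3 had log2 fold changes of 0.38 and 0.53 and no call by edgeR. Their methylation differences were 0.61 and -0.68 points over the whole gene. As given above, 8 positions near the lower bound of Gata3, the end far from its RefSeq start, fell. RefSeq places other genes within the bounds of Gfra1 (Gm46650 and Gm10007), Gata3 (4930412O13Rik and 9230102O04Rik), Wnt11 (Gm33770) and Wnt9b (Wnt3), and a position there may belong to either. Whether reads were counted by strand is not given in the sources used here. Exon and intron bounds were not used here, so positions are given only as inside a gene or in its flank.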

How the data were processed

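RRBS reads of 9 libraries and mRNA reads of 6 were processed by the authors; per the submitters' processing notes the tools were Trim Galore, Bismark, STAR 2.4.1d and HTSeq 0.6.1, and the builds mm10 and GRCm38. The deposited files give raw read counts per gene, and per cytosine the percent methylation with counts of methylated and unmethylated calls; the percent was recomputed from the calls. Gene counts were tested with edgeR 4.0.16 (quasi-likelihood, TMM, filterByExpr, Benjamini-Hochberg) in R 4.3.3, leaving out 5 rows that name no gene. These rows held between 22.9% and 35.8% of all reads of a library. Methylation was tested in Python 3.11.15 with a quasi-binomial model, its dispersion moderated as in limma and not under 1, over all positions with at least 10 calls in each library compared, and on calls summed over genes (RefSeq bounds, GRCm38.p6) with at least 5 such positions. Both procedures were tested on simulated data. The members and lists were chosen with earlier results of these data known. Of each list the called genes with the largest changes were named, at most 3 higher and 3 lower, except that some genes counted in the lists are not reported here; of CpG positions, the largest called decrease and increase per gene, and every run of at least 3 called within 1000 bases. A 0 allows up to 3 counts; such limits cover counting error only. Alternatives were DESeq2 1.42.0, limma 3.58.1 (voom), other scalings, filters, thresholds, coverage minimums, flanks and weights, a replicate block, and each library left out.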

Additional observations from a re-analysis of the deposited data

How the results depend on the processing

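Depth limits the methylation results, since KO 3 had a median of 4 calls per position. Members called higher in RNA were 5 with voom, 1 with library size alone, 0 at an adjusted p under 0.01, and 0 to 4 with 1 library left out; members called lower were 0 to 1 with 1 library left out and 0 otherwise. Over all genes, calls were 2442 higher and 2595 lower with voom and 528 and 681 at an adjusted p under 0.01, 678 higher with at least 10 counts in every library, and 647 to 2512 higher and 701 to 2561 lower with 1 library left out, the highest without control 3. The cause of these shifts was not tested. Etv4 RNA reversed to -0.069 with voom and -0.0063 without a filter, and ranged from -0.18 to 0.28 with 1 library left out, below 0 without control 1 (-0.03) and without control 3.

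Same-numbered RNA libraries deviated with correlations of -0.24, -0.07 and -0.12, so the numbers were not taken to pair samples. With a replicate block, 1 member was higher in RNA (Ret; Calb1 adjusted p 0.0928), 27 member positions were lower and 3 higher in KO, and 0 lower and 0 higher in adults. Member positions called in KO were 27 lower and 0 higher of 137 tested with at least 20 calls. Without overdispersion they were 90 lower and 17 higher. In adults they were 28 lower and 59 higher without overdispersion, 1 lower at 25 points, and 3 to 7 higher with 1 library left out. Gene sums called lower in KO were 2 with at least 20 calls, Gfra1 (-14.6 points) and Etv5 (-16.3 points). Ret and Spry1 had too few positions with that many calls to be tested. In adults, 1 gene (Spry1) was higher within gene bounds alone. The median KO difference of gene means was -4.31 points at 5 calls, -3.49 at 20 calls, -8.57 weighted by coverage, and -7.39 to -4.79 with 1 library left out. Ret and Spry1 did not enter the value at 20 calls.

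Gene sums without a call changed sign as follows. In KO, Etv4 went to -1.77 at 5 calls, -0.26 at 20 calls, -1.36 with equal weights, -0.50 without KO 1 and -1.03 without KO 3 (range with 1 library left out -1.03 to 1.59); Wnt11 to 0.75 at 20 calls and 0.052 without KO 2 (-2.23 to 0.052); Gata3 to 0.12 without KO 2 (-1.54 to 0.12); and Emx2 to -0.049 with equal weights and -0.26 without KO 3 (-0.26 to 1.07). In adults, Wnt9b went to 1.71 at 20 calls; Gfra1, Etv4, Etv5 and Emx2 to 2.27, 1.25, 5.004 and 0.17 with equal weights; Gata3 to -0.10 without control 3 (-0.10 to 0.93); and Etv5 to 0.61 without adult 3 (-3.41 to 0.61).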
